A study of Mus musculus with 6 samples.

Results

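Kidney natural killer cells were examined in single-cell RNA sequencing libraries of dissociated mouse kidney, in which each transcript is counted by its unique molecular identifier (UMI). Members were selected on measured values: a cell had at least 3 UMIs summed over Nkg7, Klrd1, Ncr1 and Klrb1c, at most 1 UMI of Cd3d, Cd3e and Cd3g, none of Cd79a and at most 2 of C1qa, C1qb and C1qc, and cells with no Ncr1 UMI and 1 Cd3 UMI were dropped. This selection, called the gate, took 335 of 24212 kidney cells kept by the limits on genes and mitochondrial UMIs, out of 34034 kidney cells and 58561 cells in the whole series.

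Natural killer cells are innate lymphocytes that kill infected or transformed cells with perforin and granzymes and release chemokines and interferon gamma. Activating receptors such as NKp46 (Ncr1), NK1.1 (Klrb1c) and NKG2D (Klrk1) signal through small adapter proteins, and inhibitory receptors of the Ly49 (Klra) and CD94/NKG2A (Klrd1 and Klrc1) families recognise class I molecules on healthy cells. Tissues hold circulating natural killer cells, marked by Eomes and CD49b (Itga2), and resident group 1 innate lymphoid cells, marked by CD49a (Itga1) and Cxcr6.

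The study compared a microfluidic platform, which digests minced tissue in a recirculating chamber and then passes it through a dissociation and filter device, with a standard digest. Kidneys came from male C57BL/6 mice of 12 weeks. The 3 libraries were a 60 min control digest and the cells eluted from the platform at the 15 min and 60 min intervals. In the study's interval format the suspension is eluted, enzyme is renewed and the tissue left in the device is processed further. The 60 min platform library thus holds cells released after the 15 min elution, while the control is a whole 60 min digest. Breast tumors of female MMTV-PyMT mice of 10 weeks, in which the mouse mammary tumor virus promoter drives the polyoma middle T oncogene in mammary epithelium, were processed in the same 3 ways. All 6 suspensions shared type I collagenase and a sort for viable cells. There was 1 library per condition, so no difference between libraries has a replicate check and none was tested. The 95% intervals are exact Poisson intervals for a gene's UMIs scaled to a common total over the summed cells (CPM), exact Clopper-Pearson intervals for shares and exact conditional intervals for ratios, and they cover counting error only. By the study's methods, all conditions of a replicate used tissue from a common source mouse, and a condition and its library cannot be told apart.

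The kidney libraries held 8233, 12082 and 13719 deposited cells in the order control, 15 min and 60 min, with 69691783, 116998401 and 112969440 UMIs. The gated cells had median depths of 7264, 4063 and 5771 UMIs in that order. Among kidney cells, 642 shared a barcode with a cell of another library, of which 1 was gated, and it shared its barcode with no other gated cell.

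UMIs of the MHC class II genes H2-Aa, H2-Ab1, H2-Eb1 and Cd74, which present antigen in dendritic and B cells, separated the gated cells into 212 with at most 20 class II UMIs per 10000 (class II-low) and 123 above that level (class II-high). This split was chosen after the values were seen. Of the class II-high cells, 118 had over 100 class II UMIs per 10000 and 5 lay between 20 and 100, while 6 class II-low cells lay between 10 and 20. The median was 1.75 per 10000 in class II-low and 651 in class II-high cells.

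The gate genes, which chose the cells, were spread differently over the 2 groups, and their counts are a description. In class II-low cells Nkg7, a granule membrane protein, was present in 209 of 212, Klrd1 in 191, Ncr1 in 184 and Klrb1c in 180, and the median sum of the 4 genes was 19 UMIs, with a range of 3 to 57. Trac, the T cell receptor alpha constant gene, had a UMI in 14 of the 212. Class II-high cells mostly passed on 1 gene: in 120 of 123 the only gate gene with a UMI was Klrd1, and Nkg7 was seen in 3, Ncr1 in 2 and Klrb1c in 2. Their median gate sum was 4 UMIs at a median depth of 10866 UMIs, against 4141 UMIs in class II-low cells. Of the dendritic cell markers that neither the gate nor the split used, Cd209a, a lectin receptor, stood at 1021, 867 and 746 CPM in class II-high cells of control, 15 min and 60 min, and at 0, 0 and 18.7 CPM in class II-low cells. Flt3, a growth factor receptor of dendritic cells, had a UMI in 60 of 123 class II-high and 1 of 212 class II-low cells, Siglech in 19 and 1, and Xcr1 in 4 and 0. Klre1, a natural killer receptor gene outside the rule, had a UMI in 9 of 123 class II-high and 183 of 212 class II-low cells. It had a UMI in 2 of 297 T cells, which were chosen with at most 2 UMIs over the gate genes. These values of class II-high cells go against the natural killer label, so most results below are given for class II-low cells.

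**Figure D1:**
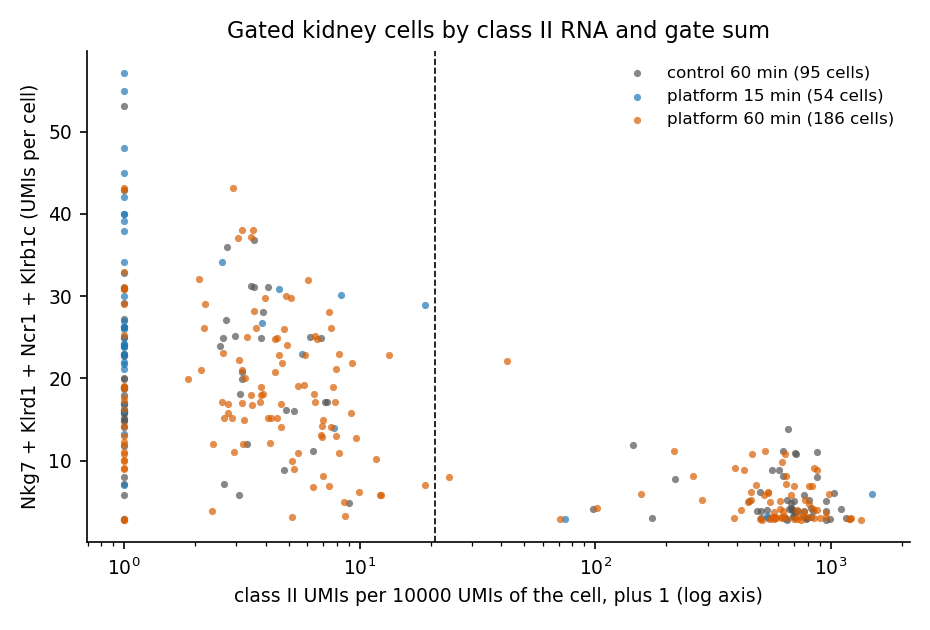
Each point is 1 of the 335 gated kidney cells, coloured by library, with its class II UMIs per 10000 plus 1 on a log horizontal axis and its summed UMIs of Nkg7, Klrd1, Ncr1 and Klrb1c on the vertical axis. The dashed line marks 20 class II UMIs per 10000: the 123 cells to its right had a median gate sum of 4 UMIs and the 212 to its left a median of 19.

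At the lower edge of the gate the cells were mostly class II-high. Of 51 members with a sum of exactly 3 UMIs, 45 were class II-high, and of 55 otherwise eligible cells with a sum of 2, just outside, 48 were. A further 477 cells had a gate sum of 3 or more but over 1 Cd3 UMI, and 417 of them carried Trac, so most cells that paired these genes with T cell receptor transcripts lay outside the gate. The rule on Ncr1 and Cd3 dropped 3 cells, over 2 C1q UMIs excluded 17, and a Cd79a UMI excluded 7.

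The promoters of 5 genes that the results turn on are given as the 250 bases before the RefSeq start on mouse build GRCm38.p6, 5′ to 3′ on the gene's strand. Hspa1a and Hspa1b encode the inducible chaperone HSP70, Xcl1 and Ccl3 encode chemokines, and Gzma encodes granzyme A. Capitals mark matches to the heat shock element GAANNTTC in Hspa1a and Hspa1b, to the Runx motif TGTGGT in Ccl3, Gzma and Xcl1 and to the T-box motif TCACACC in Xcl1, searched on both strands.
Hspa1a: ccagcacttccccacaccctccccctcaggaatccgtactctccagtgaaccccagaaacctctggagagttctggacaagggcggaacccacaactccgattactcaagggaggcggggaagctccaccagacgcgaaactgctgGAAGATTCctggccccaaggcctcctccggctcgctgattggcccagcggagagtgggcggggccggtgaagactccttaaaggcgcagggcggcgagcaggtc
Hspa1b: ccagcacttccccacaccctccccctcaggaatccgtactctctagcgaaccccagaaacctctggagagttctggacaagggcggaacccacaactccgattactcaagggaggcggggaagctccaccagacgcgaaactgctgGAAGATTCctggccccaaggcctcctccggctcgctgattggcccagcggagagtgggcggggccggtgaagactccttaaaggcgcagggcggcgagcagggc
Xcl1: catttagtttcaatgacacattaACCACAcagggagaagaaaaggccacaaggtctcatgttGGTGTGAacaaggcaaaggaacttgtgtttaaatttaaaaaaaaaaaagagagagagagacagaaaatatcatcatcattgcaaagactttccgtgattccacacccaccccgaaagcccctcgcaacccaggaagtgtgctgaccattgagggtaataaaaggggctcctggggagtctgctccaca
Ccl3: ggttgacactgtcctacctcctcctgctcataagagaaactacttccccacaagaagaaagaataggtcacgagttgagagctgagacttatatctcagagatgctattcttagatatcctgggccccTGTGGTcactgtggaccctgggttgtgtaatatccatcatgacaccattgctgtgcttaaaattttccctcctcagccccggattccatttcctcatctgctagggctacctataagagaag
Gzma: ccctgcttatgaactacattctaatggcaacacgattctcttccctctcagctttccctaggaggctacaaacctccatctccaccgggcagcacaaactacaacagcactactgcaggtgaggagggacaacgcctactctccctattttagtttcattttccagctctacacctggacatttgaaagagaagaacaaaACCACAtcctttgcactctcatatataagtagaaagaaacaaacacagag

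All 5 lie on the minus strand, upstream of their gene, Hspa1a at chr17:34972157-34972406, Hspa1b at chr17:34959239-34959488, Xcl1 at chr1:164935523-164935772, Ccl3 at chr11:83649379-83649628 and Gzma at chr13:113100982-113101231. The Hspa1a and Hspa1b stretches were the same at 247 of 250 bases, or 98.8%, and each held 1 heat shock element, from 104 to 97 bases before the start. The Runx match stood from 122 to 117 bases before the start in Ccl3, from 50 to 45 in Gzma and from 227 to 222 in Xcl1, where the T-box match stood from 188 to 182. Among 32851 promoter stretches of the same length, 6.69% held the heat shock element, 14.0% the Runx motif and 3.33% the T-box motif. The AP-1 letters TGANTCA, the CRE letters TGACGTCA and the TATA letters TATAAA, held by 6.75%, 1.55% and 12.4% of promoters, were in none of the 5. These letter matches are descriptions of the sequence.

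The gate took 95, 54 and 186 cells from the control, 15 min and 60 min libraries. As a percentage of the cells kept, that was 1.61% (1.31 to 1.97), 0.644% (0.484 to 0.839) and 1.87% (1.61 to 2.16). Class II-low cells made up 0.815% (0.602 to 1.08), 0.572% (0.422 to 0.758) and 1.17% (0.966 to 1.40), from 48, 48 and 116 cells. Relative to the control share, class II-low cells stood at 0.702 (0.460 to 1.07) at 15 min, an interval that includes equality, and at 1.43 (1.01 to 2.05) at 60 min. Class II-high cells stood at 0.0896 (0.0313 to 0.210) at 15 min, from 6 cells, and at 0.882 (0.601 to 1.31) at 60 min. All gated cells together stood at 0.399 (0.280 to 0.563) of the control share at 15 min and at 1.16 at 60 min, where the interval includes equality.

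The kept cells of the 15 min library were mostly proximal tubule cells, which bears on every share. Cells with a UMI of Slc34a1, the phosphate transporter of the proximal tubule, and none of Ptprc made up 53.9% of the control, 87.5% at 15 min and 38.6% at 60 min. T cells here had at least 2 Cd3 UMIs, at most 2 UMIs over the gate genes, no Cd79a and at most 2 C1q UMIs. The 477 cells with a gate sum of 3 or more and over 1 Cd3 UMI were in neither set. Set against these T cells of the same library, class II-low cells were 46.6% (36.7 to 56.7) of both types together for the control. They were 51.6% (41.0 to 62.1) at 15 min and 37.1% (31.7 to 42.7) at 60 min. All 3 of these intervals overlap.

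**Figure D2:**
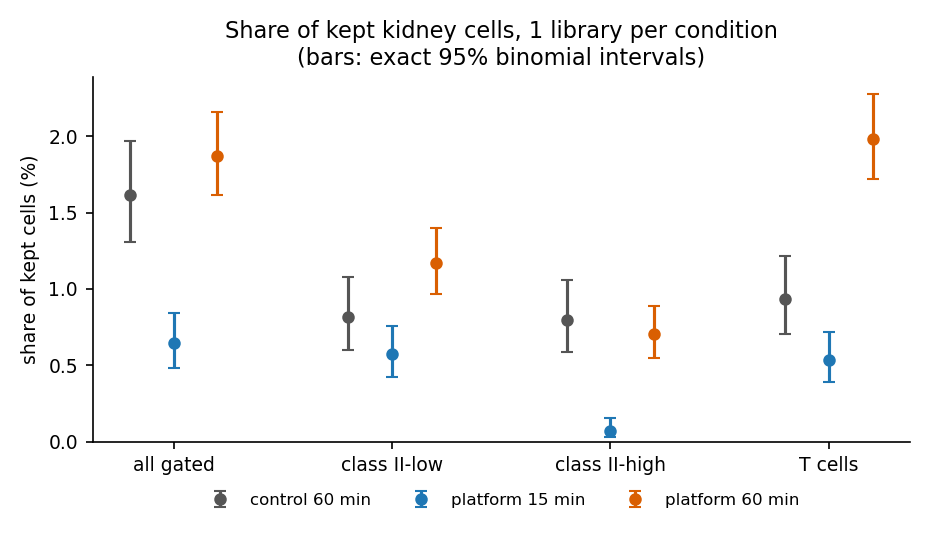
Shares of kept kidney cells in percent, with exact 95% binomial intervals as bars, for all gated, class II-low, class II-high and T cells in the 3 libraries. Class II-low cells stand at 0.815%, 0.572% and 1.17% and class II-high cells at 0.799%, 0.0715% and 0.705% in the control, 15 min and 60 min libraries.

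The 15 genes with the most UMIs in class II-low cells were Malat1, Tmsb4x, Ccl5, Gm42418, Tpt1, Actb, Gzma, Ccl4, Tmsb10, Eef1a1, Fau, Kap, AW112010, Ubb and H3f3b, among them a granzyme and chemokines beside housekeeping genes and the proximal tubule gene Kap. Gzma stood at 6731, 10928 and 6356 CPM in the control, 15 min and 60 min libraries, against 3.56, 0 and 13.0 CPM in T cells. Tyrobp and Fcer1g, the adapters that carry activating signals, stood at 2479, 3258 and 2394 CPM and at 2527, 2703 and 2390.4 CPM, while no T cell library exceeded 13.0 CPM for either. The inhibitory Ly49 receptor genes Klra4 and Klra9 stood at 529.9, 541 and 397 CPM and at 420.4, 513 and 452 CPM, while T cells had none or almost none. Against T cells, 259 of 3022 genes tested, 8.57%, were at least 2-fold higher with no overlap over the 3 libraries of each type, and 112, 3.71%, were lower. The gate genes and the Cd3 genes chose the cells, so their differences are no result. T cells with more than 2 UMIs over the gate genes were left out by rule. The values of Gzma, the adapters and the receptors apply to this T cell set and not to kidney T cells in general. Genes lower in class II-low cells included Ccr7, the lymph node homing receptor, at 8.76, 0 and 5.62 CPM against 452, 384 and 405 CPM in T cells.

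Cells also differed from each other. Gene lists divided them, with 10 genes of tissue residence (Itga1, Cxcr6, Cd200r1, Tmem176a, Tmem176b, Il7r, Inpp4b, Tnfsf10, Itgae and Rora) and 12 genes of circulating cells (among them Eomes, Itga2, Itgam, S1pr5, S1pr1, Klf2, Zeb2, Cma1, Klra4, Klra8 and Klra9). Of the 212 class II-low cells, 73 had more residence than circulating UMIs (residence-led), 138 had more circulating UMIs (circulating-led) and 1 was tied. These are ranges of a score and not cell types, and 3 cells lay within 1 UMI of a tie. Few cells carried both genes of a pair across the lists. Cxcr6 and Eomes were found together in 4 cells, Cxcr6 alone in 69 and Eomes alone in 94. Itga1 and Itga2 were found together in 3 cells, Itga1 alone in 35 and Itga2 alone in 50.

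Residence-led cells numbered 18 of 48 for the control, 7 of 48 at 15 min and 48 of 116 at 60 min. Their shares were 37.5% (24.0 to 52.6), 14.6% (6.07 to 27.8) and 41.4% (32.3 to 50.9). The interval at 15 min did not overlap that at 60 min and overlapped that of the control. With each cell thinned to 1000 UMIs, and 3 cells of the 60 min library left out as shallower, the shares were 31.3% (18.7 to 46.3), 16.7% (7.48 to 30.2) and 36.3% (27.4 to 45.9), and the intervals at 15 and 60 min then overlapped. The summed residence list stood at 1038, 551 and 1370.5 CPM, and the circulating list at 3175, 4595 and 3530.2 CPM. Klf2, with values given further on, made up a large part of the circulating sum. At 60 min the log2 ratio of that sum to the control was 0.15. The median log2 fold change over its 8 tested genes was -0.25.

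**Figure D3:**
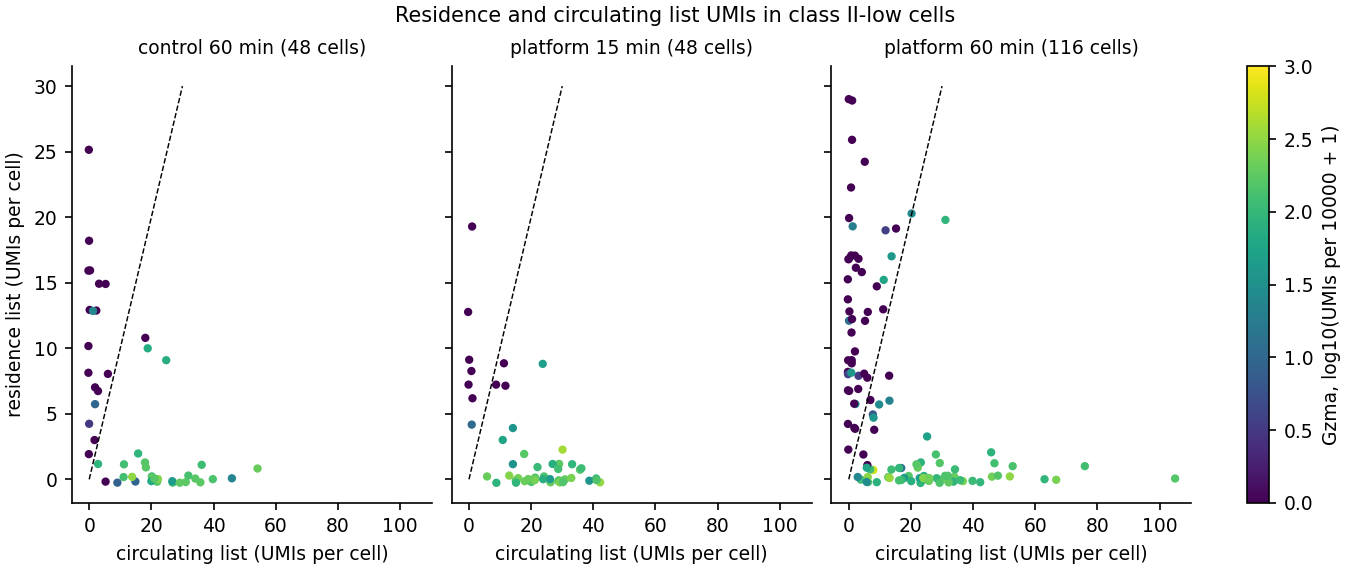
Each point is 1 class II-low cell, with its summed circulating list UMIs on the horizontal and residence list UMIs on the vertical axis, slightly displaced to separate points, in a panel per library; the dashed line marks equal sums and colour gives Gzma on a log10 scale. The 73 residence-led cells lie above the line, mostly dark with a Gzma median of 0 per 10000, and the 138 circulating-led cells below it, with a Gzma median of 121.

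Of 13 tested cytotoxic granule genes outside the 2 lists, Gzma, Gzmb and Prf1 were at least 2-fold higher in circulating-led cells with no overlap over the libraries, none was higher in residence-led cells, and the median log2 ratio of residence-led to circulating-led cells was -0.07. Gzma stood at 215, 130.3 and 369 CPM in residence-led cells of the control, 15 min and 60 min, and at 11603, 12752 and 11598 CPM in circulating-led cells. It had a UMI in 13 of 73 residence-led and 128 of 138 circulating-led cells, and its median per cell was 0 and 121 per 10000. Gzmb, granzyme B, stood at 297, 130.3 and 239 CPM against 1194, 996 and 1547 CPM. Prf1, the pore-forming protein perforin, stood at 215, 293 and 299 CPM against 1202, 1249 and 1271 CPM.

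Chemokine genes went both ways. Ccl5 was higher in circulating-led cells, at 15874, 13567 and 14330.3 CPM against 3563, 4301 and 4652 CPM. Xcl1, which attracts cross-presenting dendritic cells, was higher in residence-led cells, at 3983, 2509 and 4084 CPM against 505, 385 and 1469 CPM, with a UMI in 71 of 73 and 54 of 138 cells. The median depth was 4569 UMIs in residence-led and 3863 UMIs in circulating-led cells.

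Among 1326 genes tested outside the 2 lists, 28 (2.11%) were at least 2-fold higher in residence-led cells with no overlap over the 3 libraries, and 34 (2.56%) in circulating-led cells. For a class defined by its own genes this count is a description. Of 7 inhibitory receptor genes tested, 4 were higher in circulating-led cells and 2 in residence-led cells. Klrg1 stood at 171 CPM in circulating-led and 10.8 CPM in residence-led cells, Klra7 at 289 against 10.8 and Klra3 at 178 against 27.1. Klra7 and Klra3 are Ly49 genes, like Klra4, Klra8 and Klra9 of the circulating list. Their difference is thus a description and no separate result. Klrc1, which encodes NKG2A, was higher in residence-led cells at 633 against 227 CPM, as was Klrb1b at 503 against 193.

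Of the transcription factors, Irf8 was higher in circulating-led cells, at 1864 against 409 CPM, and Ikzf2, which encodes Helios, in residence-led cells, at 273 against 30.3 CPM. Residence-led cells also had more Ltb, a lymphotoxin subunit, at 352 against 60.5 CPM, and more Trbc2, a T cell receptor beta constant gene, at 428 against 136 CPM. Their Cd28 level was 349 against 123 CPM. None of 10 stress response genes and none of 8 heat shock genes tested stood apart between the ranges by this rule. Over all genes tested the shares were 2.11% and 2.56%. The rule asks for no overlap over the libraries, and the sums of both lists differed between libraries. It thus cannot show that the ranges were alike in these genes.

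**Figure D4:**
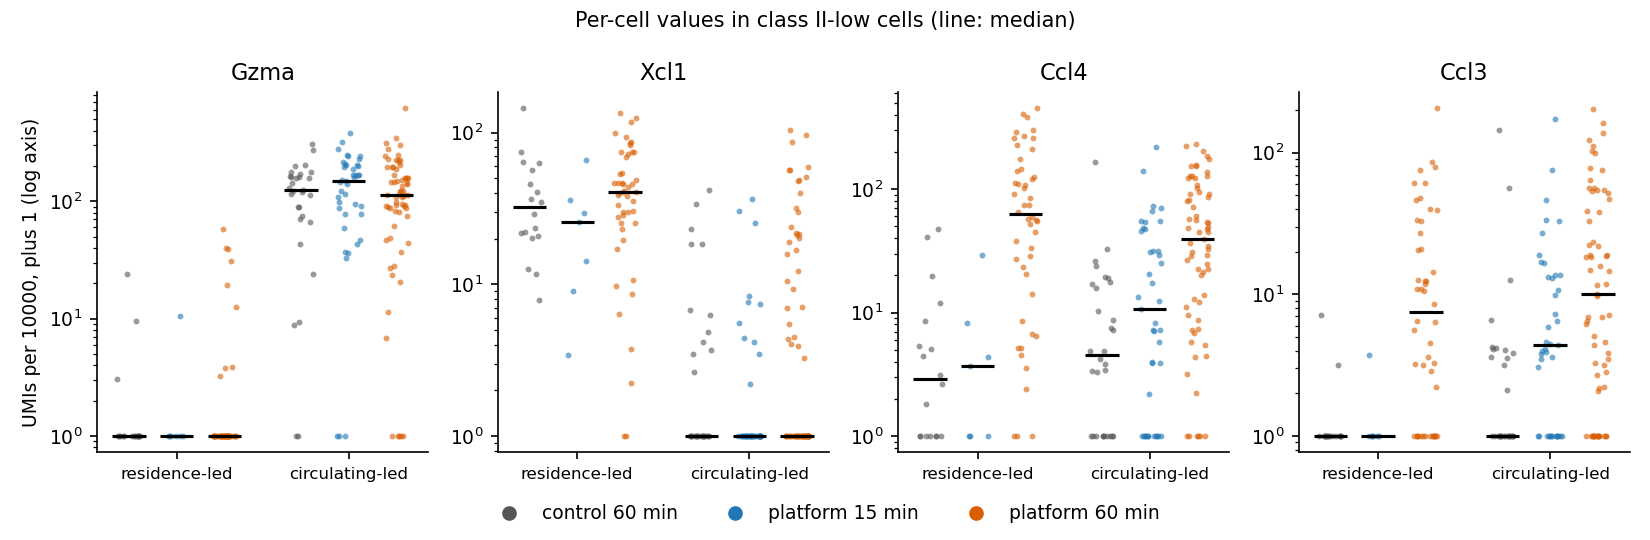
UMIs per 10000 plus 1, on log axes that differ between panels, of Gzma, Xcl1, Ccl4 and Ccl3 in each class II-low cell, by range and library, with medians as lines. Gzma has a median of 0 in residence-led and 121 in circulating-led cells and Xcl1 a median of 35.3 and 0, while the Ccl4 median at 60 min is 61.5 in residence-led and 38.0 in circulating-led cells.

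Across the kidney libraries, class II-low cells at 15 min had 29 of 992 genes tested at least 2-fold higher than the control, 2.92%, and 41 lower, 4.13%. At 60 min 58 of 1761 genes were at least 2-fold higher, 3.29%, and 6 lower, 0.341%. A gene was tested with at least 60 UMIs over both libraries compared, and the median log2 fold change over tested genes was 0.04 at 15 min and 0.01 at 60 min. Residence-led cells were 14.6% of the 15 min cells and 37.5% of the control cells, so values within each range are given further on. Of the genes with 100 UMIs or more, the 8 highest folds at 15 min included those of Ifitm1, Ccl9, Miox, Fxyd2, Kap, Ly6c2 and Ccl3, and the 8 lowest were those of Hspa1a, Fosl2, Samsn1, Vps37b, Nr4a2, Dnaja1, Cd27 and Cxcr6. At 60 min the highest included those of Ren1, Ccl4, Nr4a1, Atf3, Ccl3, Bst2 and Hsph1, and no gene with 100 UMIs was at least 2-fold lower, AY036118 being the lowest at a log2 fold change of -0.93.

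Ncr1 was used by the rule, so its values are a description. It stood at 473 (388 to 571) CPM for the control, 1074 (939 to 1222) at 15 min and 581 (518 to 650) at 60 min, with a UMI in 42 of 48, 47 of 48 and 95 of 116 cells. It was the 1 of the 4 gate genes at least 2-fold higher at 15 min, and none of them passed at 60 min. Of 10 tested genes of 14 activating receptors, 3 were at least 2-fold higher at 15 min, Klrb1a, Klrb1f and the gate gene Ncr1. None was lower, and of 12 tested at 60 min none passed in either direction. These and the list counts below stand beside shares over all tested genes of 2.92% higher and 4.13% lower at 15 min. At 60 min those shares were 3.29% and 0.341%. Klrk1 stood at 889, 1262 and 909 CPM. The inhibitory receptor list of 18 genes had 1 of 7 tested genes at least 2-fold higher at 15 min, the Ly49 gene Klra7 at 297 against 118 CPM in the control, and 0 of 9 at 60 min.

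The 16 genes of the cytotoxic granule list summed to 15894 CPM for the control, 20156 at 15 min and 14747 at 60 min. None of 13 tested genes was at least 2-fold higher in either platform library, and 1 was at least 2-fold lower in each, Serpinb9, an inhibitor of granzyme B, at 15 min (-1.31 on the log2 scale) and Gzmc at 60 min. Prf1 stood at 780 CPM for the control, 1111 at 15 min and 812 at 60 min. Within circulating-led cells, Gzma differed from the control by 0.14 (0.04 to 0.23) at 15 min and by -0.00 (-0.09 to 0.09) at 60 min on the log2 scale, against 0.70 (0.61 to 0.79) at 15 min over all class II-low cells. Gzmc had 66 of its 153 UMIs in 1 cell of the 15 min library. In the control all its UMIs were in cells that held 22, 24 and 35, so the 60 min difference rests on those cells.

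The chemokine genes Ccl3 and Ccl4, which attract leukocytes, were at least 2-fold higher than the control in both platform libraries, and the 15 min calls depended on single cells. Ccl4 stood at 999 (873 to 1137) CPM for the control, 2505 (2297 to 2727) at 15 min and 7345 (7117 to 7579) at 60 min. It had a UMI in 31 of 48, 34 of 48 and 106 of 116 cells, and its median per cell was 3.00, 6.66 and 48.3 per 10000. The log2 fold change from the control was 1.33 (1.10 to 1.56) at 15 min and 2.88 (2.69 to 3.08) at 60 min. Ccl3 stood at 504 (416 to 605), 1271 (1124 to 1432) and 2182 (2059 to 2311) CPM, with log2 fold changes of 1.34 and 2.12. The 3 intervals of each gene did not overlap.

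The 15 min cell with Mcpt8, a basophil protease gene, held 112 of 270 Ccl3 and 143 of 532 Ccl4 UMIs. Without it Ccl3 stood at 768 and Ccl4 at 1890.1 CPM, with log2 fold changes of 0.61 (0.25 to 0.97) and 0.92 (0.68 to 1.16), so neither passed 2-fold. In the other direction, 1 control cell held 66 of 115 Ccl3, 76 of 228 Ccl4 and 27 of 56 Ifng UMIs. Without this control cell alone the log2 fold changes at 15 min were 2.54 for Ccl3 and 1.88 for Ccl4, and at 60 min 3.32 and 3.43. Without both cells they were 1.81 (1.34 to 2.30) and 1.48 (1.20 to 1.76) at 15 min. The 60 min values stayed past 2-fold under each of these choices, which were made after the values were seen.

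Ccl4 was also present in other cells. Among kept cells without a Ptprc UMI, which are mostly not leukocytes, 6.78% had a Ccl4 UMI for the control, 0.852% at 15 min and 24.2% at 60 min, at median depths of 4728, 6803 and 4264 UMIs. In class II-low cells the shares were 64.6%, 70.8% and 91.4%, at median depths of 4328, 3875 and 4260.5 UMIs. In T cells they were 9.09%, 0% and 21.8%, where 0 of 45 cells has an exact upper bound of 7.87%. The level in cells without a Ptprc UMI was 204, 7.99 and 382 CPM, so it was highest at 60 min there too. Their Ccl4 UMIs numbered 5060 in 306 cells, 469 in 67 and 13213 in 1672, so cells with several UMIs each were among them. The set is thus not a measure of stray RNA alone. Its part in the difference between libraries was not tested. Ccl4 in class II-high cells stood at 1316, 233 and 7724 CPM.

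Of Ifng, the interferon gamma gene, and Xcl1, only Xcl1 at 15 min passed 2-fold over all class II-low cells. Values within the ranges are given further on. Ifng stood at 245, 127 and 482 CPM, a log2 difference from the control of -0.95 (-1.67 to -0.26) and 0.97 (0.55 to 1.42). Without the control cell that held 27 of its 56 Ifng UMIs the control stood at 129.6 CPM, and the log2 differences were -0.03 (-0.84 to 0.78) at 15 min and 1.89 (1.34 to 2.501) at 60 min. Xcl1 stood at 1993, 692 and 2628 CPM, a difference of -1.53 (-1.80 to -1.25) and 0.40 (0.25 to 0.56). Over the 12 genes of the cytokine and chemokine list, 2 of 7 tested genes were at least 2-fold higher at 15 min (Ccl3 and Ccl4, neither of them without the cell with Mcpt8) and 1 lower (Xcl1), and at 60 min the same 2 were higher and none lower. Tnf had 6, 3 and 3 UMIs, too few to compare.

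The summed genes of dissociation stress were lowest at 15 min. The 12 genes of the stress response list, immediate early genes and chaperones, summed to 8063 (7699 to 8440) CPM for the control, 5170 (4868 to 5485) at 15 min and 10244 (9974 to 10519) at 60 min. The median per cell was 60.4, 41.6 and 91.8 per 10000. At 15 min 1 of 7 tested genes, Hsp90aa1, was at least 2-fold lower and none higher. At 60 min 3 of 11, Nr4a1, Atf3 and Fos, were at least 2-fold higher and none lower, and the ratio of the sums was 0.641 at 15 min and 1.27 at 60 min.

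Immediate early genes did not move as 1 block. Nr4a1, an orphan nuclear receptor induced by antigen receptor and stress signals, stood at 153, 104 and 735 CPM, with a UMI in 21 of 48, 15 of 48 and 104 of 116 cells. At 60 min its log2 fold change was 2.26 (1.76 to 2.80), and at 15 min it had too few UMIs to be tested. Nr4a2 stood at 407, 98.9 and 675 CPM. Nr4a3 had 42, 2 and 140 UMIs. Fosl2, an AP-1 subunit, stood at 385, 56.5 and 407 CPM, a log2 difference of -2.77 (-3.78 to -1.89) at 15 min and 0.08 (-0.29 to 0.45) at 60 min. Atf3 had 9, 0 and 95 UMIs, with a log2 fold change of 2.18 at 60 min, while Fos stood at 245, 339 and 521 CPM, Jun at 512, 259 and 512 CPM and Egr1 at 48.2, 75.3 and 65.6 CPM.

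Chaperones gave the widest gap at 15 min. Hspa1a had 131 UMIs in 11 of 48 control cells, 1 UMI at 15 min and 434 UMIs in 49 of 116 cells at 60 min. Because Hspa1a and Hspa1b are near-identical copies, as their promoters above are, reads can be split between them and their sum is given. It was 766, 9.42 and 1250.5 CPM, from 175, 2 and 667 UMIs, a log2 ratio to the control of -6.35 (-9.40 to -4.47) at 15 min and 0.71 (0.46 to 0.95) at 60 min. Among kept cells without a Ptprc UMI, the share with an Hspa1a UMI was 21.3%, 5.23% and 48.4%, so its order over the libraries was the same there. These UMIs numbered 15660 in 960 cells, 2024 in 411 and 58437 in 3343, so cells with several each were among them. The part of RNA from such cells in the result was not tested.

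Hsp90aa1, the inducible HSP90, stood at 1091, 381 and 1541 CPM, a log2 difference of -1.52 (-1.90 to -1.15) and 0.50 (0.29 to 0.71). Dnaja1, an HSP40 cochaperone, stood at 1248, 405 and 1798 CPM. Of 6 tested genes of the heat shock list of 9, 4 were at least 2-fold lower at 15 min (Hspa1a, Dnaja1, Dnajb1 and Hspe1) and none higher, and of 9 tested at 60 min 3 were higher (Hspa1b, Hspb1 and Hsph1) and none lower. Of 66 Hspb1 UMIs over all class II-low cells, 31 were in 1 cell at 60 min. The log2 ratio of the summed heat shock list at 15 min was -1.50 in T cells and -1.22 in class II-low cells. At 60 min it was -0.08 in T cells and 0.45 in class II-low cells, and neither difference between the cell types was tested.

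**Figure D5:**
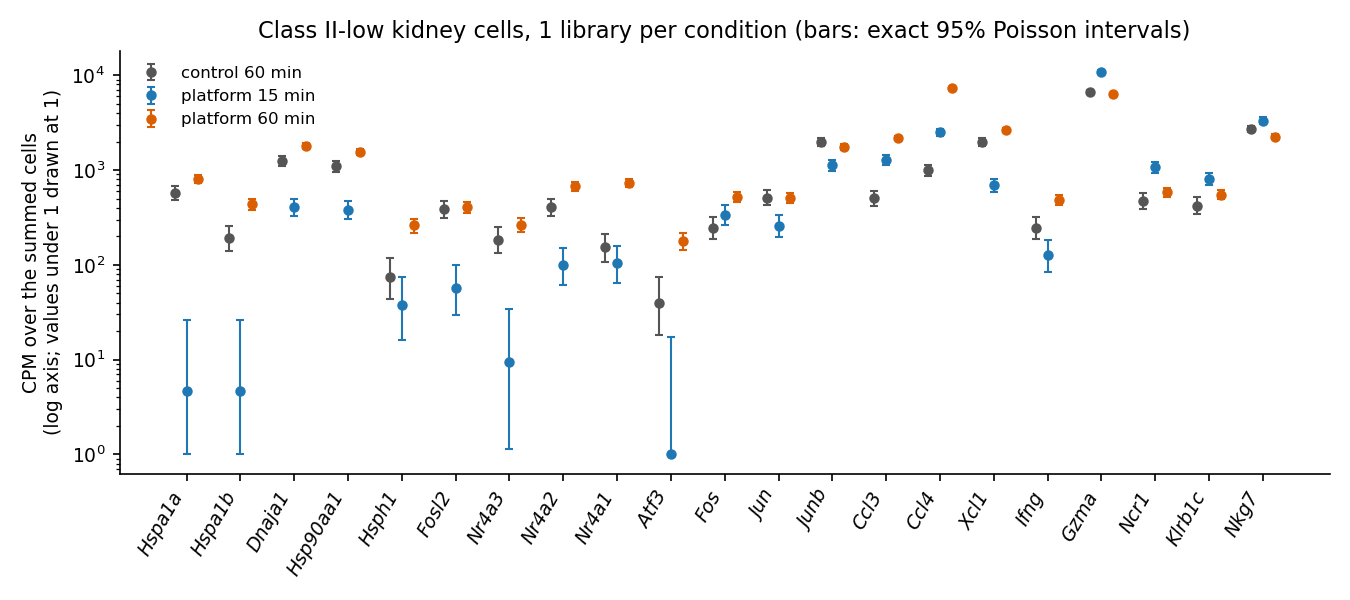
CPM over the summed class II-low cells of each library on a log axis for the genes named on the axis, with exact 95% Poisson intervals as bars and values under 1 drawn at 1. The 15 min point is below both others for Hspa1a, Hsp90aa1, Fosl2 and Nr4a3, and Ccl4 stands at 999, 2505 and 7345 CPM in the control, 15 min and 60 min, with 1 cell giving 143 of its 532 UMIs at 15 min.

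Of 10 tested transcription factor genes none passed 2-fold at 15 min, and of 14 at 60 min 1 did, Nfil3, a factor of innate lymphoid development, at a log2 fold change of 1.17. The feedback and activation list of 16 genes had 2 of 12 at least 2-fold lower at 15 min, Nr4a2 and Rgs2, and 1 of 16 higher at 60 min, Cd69, an early activation marker that holds lymphocytes in tissue. Among cytokine receptors, 1 of 4 was lower at 15 min, Ifngr1, and 2 of 9 were higher at 60 min, Ifnar1 and Il7r. Among signalling adapters, 1 of 6 was lower at 15 min, Sh2d2a, and 0 of 7 passed at 60 min. Of 5 interferon-stimulated genes at 60 min, Ly6a and Bst2 were at least 2-fold higher and Irf7 lower.

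Single genes outside the signalling lists also stood apart. Vps37b, an endosomal sorting subunit, stood at 1577, 363 and 1759 CPM, and Samsn1, a negative regulator of lymphocyte signalling, at 512, 104 and 596 CPM. Cd27, a costimulatory receptor of immature natural killer cells, stood at 372, 122 and 236 CPM, and Ifngr1, the interferon gamma receptor, at 1953, 876 and 1502 CPM. Spry2, a feedback inhibitor of MAPK signalling, stood at 166, 198 and 471 CPM. Ly6c2 stood at 320, 843 and 298 CPM, and Klf2, a list gene of circulating cells, at 911, 1667 and 1579 CPM.

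Within the ranges the 60 min chemokine difference was present in both. In residence-led cells Ccl4 stood at 594, 652 and 9789 CPM, a log2 ratio to the control of 0.13 (-0.68 to 0.89) at 15 min, from 7 cells, and 4.04 (3.67 to 4.44) at 60 min. In circulating-led cells it stood at 1301, 2818 and 5511 CPM, a ratio of 1.11 (0.86 to 1.37) and 2.08 (1.85 to 2.32), and the cell with Mcpt8 was among them, without which the 15 min ratio was 0.70 (0.43 to 0.97). Ccl3 in residence-led cells had 3, 1 and 470 UMIs, a log2 ratio of 5.99 (4.43 to 8.27) at 60 min from 3 control UMIs. Nr4a1 at 60 min had a log2 ratio of 2.72 (1.81 to 3.81) in residence-led and 2.06 (1.46 to 2.72) in circulating-led cells, and the intervals overlap.

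Xcl1 differed less from the control within the ranges than over all class II-low cells at 15 min. Its log2 ratio at 15 min was -0.67 (-1.04 to -0.31) within residence-led cells and -0.39 (-0.90 to 0.12) within circulating-led cells. Over all class II-low cells it was -1.53. At 60 min it was 0.04 (-0.13 to 0.21) in residence-led and 1.54 (1.16 to 1.94) in circulating-led cells. Ifng at 60 min had 1.65 (0.87 to 2.53) in residence-led cells, from 15 control UMIs, and 0.66 (0.15 to 1.20) in circulating-led cells. At 15 min Ifng had -1.08 (-1.84 to -0.34) in circulating-led cells. Without the control cell with 27 Ifng UMIs, circulating-led cells had 0.42 at 15 min and 2.16 at 60 min. Hspa1a and Hspa1b together had 38, 0 and 310 UMIs in residence-led and 137, 2 and 357 UMIs in circulating-led cells, so the low count at 15 min was present in both. The summed heat shock list had a log2 ratio of -1.09 in residence-led and -1.28 in circulating-led cells at 15 min, and of 0.55 and 0.40 at 60 min.

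RNA of other cells was present in class II-low cells. Kap, an androgen-regulated gene of proximal tubule, stood at 2067, 5509 and 5218 CPM and had a UMI in 91.7%, 100.0% and 93.1% of cells, at 94.4%, 98.8% and 94.4% in kept cells without a Ptprc UMI. In T cells Kap stood at 1135, 959 and 1686 CPM, with a UMI in 92.7%, 93.3% and 91.9% of cells. The higher level at 15 min than in the control was thus not seen in T cells, and the reason was not tested. The 7 proximal tubule markers summed to 3342, 8480 and 6944 CPM, with 5 of 5 tested genes at least 2-fold higher at 15 min and 1 of 6 at 60 min. The macrophage markers summed to 39.4, 9.42 and 116 CPM and the endothelial markers to 30.7, 51.8 and 240.0 CPM. Their part in the results above was not tested.

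Some genes had all or most of their UMIs in 1 cell. All 1420 Ren1 UMIs, which encode renin, were in 1 cell at 60 min with 11502 UMIs and a gate sum of 20. All Ifitm1 and Mcpt8 UMIs and 114 of 122 Ccl9 UMIs were in 1 cell at 15 min with a gate sum of 7, all of it Nkg7, so the highest folds there include genes of that cell. All 14 Siglech UMIs were in 1 cell at 60 min with a gate sum of 7 and no Nkg7 or Ncr1 UMI. Another 60 min cell, with a gate sum of 3 and no Ncr1 UMI, held 25 of 37 Flt1 and 37 of 57 Igfbp5 UMIs. The natural killer label is uncertain for such cells. Mki67, a marker of dividing cells, had no UMI in any class II-low cell, which allows a level of up to 3.08 CPM by a floor of 3 UMIs over the 212 cells.

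Counting all 335 gated cells, 197 of 2124 genes tested were at least 2-fold higher at 15 min, 9.27%, and 277 lower, 13.0%, with a median log2 fold change of 0.17 over tested genes, so values there should be read against that shift. At 60 min 82 of 3771 were higher, 2.17%, and 38 lower, 1.01%. Class II-high cells were 47 of 95 gated cells in the control and 6 of 54 at 15 min, and among class II-low cells the counts at 15 min were 29 and 41. The 8 lowest genes with 100 UMIs at 15 min were Il1b, at a log2 fold change of -7.97, Cd83, a marker of mature dendritic cells, at -6.29, and Ccl2, Hspa1b, Tnfsf9, Marcksl1, Mt1 and Cd14. The 8 highest included Ifitm1, Miox, Ncr1, Kap, Fxyd2, Klrb1c and Gimap5. At 60 min Ren1, Ccl1, Ifit1, Areg, Ccl4, Hist1h2ap, Rsad2 and Spry2 were highest, and Cox6a2, at -2.52, was lowest, followed by Mt2, Csf2rb, Ly6d, Cd14, Mt1, Siglech and Rrad. All 205 Ccl1 UMIs at 60 min were in 1 class II-high cell, and 3 class II-high cells held 128 of the 144 Areg UMIs.

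The gate was also applied to the tumor libraries for comparison, which differ from kidney in strain, sex, age and tissue. It took 127 cells, of which 103 were class II-low, 31, 26 and 46 in the control, 15 min and 60 min. Kidney class II-low cells had 176 of 2319 genes, 7.59%, at least 2-fold higher than tumor cells with no overlap over the 3 libraries, and 97, 4.18%, lower. Circulating list genes summed to 3175, 4595 and 3530.2 CPM in kidney and 649, 698 and 913 CPM in tumor cells, with no overlap. Klra8, which encodes Ly49H, stood at 416, 607 and 354 CPM in kidney and 18.3, 6.65 and 0 CPM in tumor cells. Ccl4 was higher in kidney in each library pair, with 64.0, 399 and 351 CPM in tumor cells. Proximal tubule genes such as Kap, with no UMI in tumor cells, were among the genes higher in kidney, while Ncr1, which the gate used, stood at 453, 944 and 622 CPM in tumor cells.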

How the data were processed

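Cells were captured on the 10x Genomics platform, and the deposited matrices hold UMI counts that the authors made with Cell Ranger 3.1.0 on mm10, aggregated so that read depth per cell is even between libraries. Cells with 200 to 3000 genes and at most 50% mitochondrial UMIs were kept for kidney (up to 4000 genes and 25% for tumor). Doublets were not called beyond these limits. Members were chosen by the UMI rule given above, and members and gene lists were chosen with earlier results of these data known. UMI counts were summed over cells of a library and given as CPM. A gene needed 60 UMIs over both libraries to be tested, and for fold changes counts under 3 UMIs in a library were set to 3, except in list sums and in ratios given with an interval, such as that of Hspa1a and Hspa1b together. Genes named were the 8 furthest each way among those with 100 UMIs, the 15 most abundant, list members and, for the ranges and single cells, genes chosen after their values were seen. No test between conditions was run, since each has 1 library, and a fold of 2 was used. Computed with Python 3.11.15, numpy 2.4.6, scipy 1.17.1 and pandas 2.3.3; fold and interval code was tested on simulated data. Some genes are not reported here.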

Additional observations from a re-analysis of the deposited data

Results flagged for a closer look

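In class II-low cells, 4 list ratios to the control had intervals on opposite sides of 0 in kidney and tumor, and the differences between the tissues were not tested. The summed cytotoxic granule list at 60 min had a log2 ratio of -0.11 (-0.16 to -0.05) in kidney and 0.23 (0.16 to 0.31) in tumor. The stress response list at 15 min had -0.64 (-0.75 to -0.53) in kidney and 0.11 (0.0018 to 0.21) in tumor. The feedback and activation list at 15 min had -0.23 (-0.35 to -0.12) in kidney and 0.58 (0.46 to 0.69) in tumor. The macrophage markers at 60 min had 1.56 (0.54 to 2.75) in kidney and -2.70 (-3.10 to -2.33) in tumor. None of the 8 macrophage genes reached the UMI minimum for testing in kidney. In tumor 2 did, of which 1 was at least 2-fold lower.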

How the results depend on the processing

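No paired analysis was possible because each condition has 1 library. Of 430 list ratios compared under the alternatives, 237 stayed within the reported interval, 168 moved and 25 reversed, and of 167 other comparisons 121 stayed. A reversal was counted only where the reported interval excluded 0. The cause was not tested except where fewer cells or genes entered. The choice of cells mattered most. In class II-low cells, chosen after seeing the data, the cells were 0.815% (control) and 1.17% (60 min) of those kept, with 0.873 and 0.589 cells per T cell, a residence-led control share of 37.5%, and a 15 min share ratio of 0.702. Genes past 2-fold were 29 higher and 41 lower at 15 min and 6 lower at 60 min. The log2 ratios there were 0.22 and 0.63 for cytokines and chemokines and -0.64 and 0.35 for stress response at 15 and 60 min. Reversed at 15 min were cytokine receptors (-0.69), trafficking (-0.00042), cell cycle (-0.45) and T cell markers (-0.58). Reversed at 60 min were gate markers (-0.071), inhibitory receptors (-0.027), granule (-0.11), cytokine receptors (-0.12), maturation (-0.22), interferon-stimulated (0.0095), B cell (0.75), macrophage (1.56) and dendritic markers (0.79). The class II-low intervals of trafficking at 15 min and of gate markers, inhibitory receptors and interferon-stimulated genes at 60 min included 0. With at least 1 Ncr1 UMI required, the gated share was 0.714% and 0.976% (control, 60 min), with 0.764 and 0.492 per T cell, a residence-led share of 38.1% and a 15 min ratio of 0.785. Counts were 20 higher and 37 lower at 15 min and 44 and 5 at 60 min, and list ratios were 0.16 and 0.72 for cytokines and -0.79 and 0.27 for stress. Reversed were, at 15 min, cytokine receptors (-0.58), cell cycle (-0.38) and T cell markers (-0.45), and at 60 min gate markers (-0.013), granule (-0.10), cytokine receptors (-0.00018), maturation (-0.27), B cell (0.97), macrophage (1.54) and dendritic markers (0.62). A gate of 5 UMIs gave shares of 1.16% and 1.43%, 0.721 per T cell at 60 min, 123 higher and 161 lower genes at 15 min, and ratios of 0.91 and 1.09 for cytokines and -0.82 and 0.27 for stress. Without upper limits, the 60 min share was 1.60%, 357 genes at 15 min and 275 at 60 min were higher, cell cycle reversed at 15 min (-0.70), and ratios were -0.84 and 0.13 for stress and 1.38 for cytokines at 60 min. A mitochondrial limit of 25% gave a 15 min share of 0.917% and a cytokine ratio of 1.21 there. CPM without mitochondrial genes gave 0.27 for stress at 60 min. The mean of single-cell CPM gave 128 higher genes at 15 min, 0.80 and 1.06 for cytokines, -0.90 and 0.29 for stress, and cytokine receptors reversed at 15 min (-0.072). A median ratio of 1 gave 0.95 for cytokines and -1.18 for stress at 15 min. A minimum of 20 UMIs gave 794 higher and 608 lower genes at 15 min and 397 and 167 at 60 min (class II-low cells 253 and 191, 305 and 133), and 150 UMIs gave 53 and 124, 21 and 12 (class II-low 10 and 14, 14 and 0). A class II limit of 5 gave a class II-low share of 0.845% at 60 min. Higher genes were 41.6% of those past 2-fold at 15 min in all gated cells, 30.6% with a median ratio of 1, 31.8% with the mean of cells, 29.9% with 150 UMIs, 56.6% with 20 UMIs and 51.7% without limits. In class II-low cells they were 41.4% at 15 min, and 30% without mitochondrial genes, 31.4% with the mean of cells, 31.0% with a median ratio of 1 and 57.0% with 20 UMIs. At 60 min they were 68.3% in gated cells, 90.6% in class II-low cells, 89.8% with Ncr1 required and 84.6% without limits. In class II-low cells the lists kept their signs under the 3 other scalings except transcription factors at 15 min (0.046, and -0.012 without mitochondrial genes) and, with the mean of cells at 60 min, inhibitory receptors (0.062) and interferon-stimulated genes (-0.12). Without the 15 min cell with Mcpt8, genes past 2-fold there were 25 higher and 45 lower. With 1 library per condition, depth limits genes under 60 UMIs, and a condition and its library cannot be told apart.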
